A study of Mus musculus with 13 samples.

Results

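Polycomb repressive complex genes are described here in whole mouse hippocampus: Ezh1, Ezh2, Eed, Suz12 and Jarid2 of complex PRC2, and Rnf2, Ring1, Bmi1, Cbx7 and Cbx8 of complex PRC1. They were chosen by name, from current or former symbols, and every probe set that the platform annotation gives to exactly 1 of these genes was taken. That gave 10 genes of the 19938 with a probe set of their own, and 11 probe sets of the 35556 on the Affymetrix Mouse Gene 1.0 ST array, because Eed has 2. The arrays hold 13 C57BL/6J mice aged 1 to 2 months on standard chow, 7 wild-type (Kmt2d+/+) and 6 heterozygous (Kmt2d+/Bgeo), the latter a model of Kabuki syndrome. The KMT2D protein methylates lysine 4 of histone H3, and βGeo is an inserted fusion of reporter and selection genes that every cell of the mouse carries on 1 allele. Experiment 1 had 4 wild-type and 3 heterozygous mice without injections, whose RNA was extracted with the Qiagen RNeasy kit. Experiment 2 had 3 wild-type and 3 heterozygous mice that received 3 saline injections per day as vehicle controls of another, unpublished experiment, and their RNA was extracted with TRIzol and a spin column. Injection, extraction and array run therefore cannot be told apart in any difference between the experiments. By the labels 12 mice are female, and the sex of 1 (wild-type replicate 3, experiment 1) is unknown.

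Polycomb proteins keep genes silent through marks on histones. PRC2 methylates histone H3 at lysine 27 through Ezh1 or Ezh2, and needs Eed and Suz12 for its activity. PRC1 ubiquitinates histone H2A through Ring1 or Rnf2 (also called Ring1b), and its CBX proteins read the mark that PRC2 leaves. The Trithorax-type methylation of H3 lysine 4 by KMT2 enzymes is classically described as the opposing system, and in neurons Ezh1 is known to be retained after cell division ends while Ezh2 is known chiefly from dividing progenitors.

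The 10 genes lie on 8 chromosomes of GRCm38.p6. Ezh1 (chr11:101191115-101226463), Suz12 (chr11:79993106-80034123) and Cbx8 (chr11:119036303-119040913) share chromosome 11. The others are Ezh2 (chr6:47530274-47595270), Eed (chr7:89954654-89980976), Jarid2 (chr13:44730774-44921643), Rnf2 (chr1:151469398-151500991), Ring1 (chr17:34020792-34024680), Bmi1 (chr2:18677018-18686629) and Cbx7 (chr15:79915804-79971143). These are the whole gene spans of the RefSeq annotation, exons and introns included, and positions of the array's probes within them are not used here.

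The 250 bases before a RefSeq start site (GRCm38.p6, gene strand) are printed for 4 genes. These are the PRC2 enzyme pair Ezh1 and Ezh2, whose levels differed in opposite directions between the experiments, and Suz12 and Rnf2, the members that differed most. Capitals mark the core letters of the transcription factor NRF1, GCGCA and GCGC with 1 base of any kind between them. The windows are chr11:101226464-101226713 on the minus strand for Ezh1, chr6:47595031-47595280 on the minus strand for Ezh2, chr11:79992856-79993105 on the plus strand for Suz12 and chr1:151500992-151501241 on the minus strand for Rnf2. Most of the Ezh2 window lies inside the gene span given above, which ends at 47595270. The windows of Cbx7 (chr15:79932647-79932896) and 1 of Jarid2 (chr13:44731021-44731270), counted below, lie wholly inside theirs. These windows therefore precede a start other than the outermost of the gene.
Ezh1: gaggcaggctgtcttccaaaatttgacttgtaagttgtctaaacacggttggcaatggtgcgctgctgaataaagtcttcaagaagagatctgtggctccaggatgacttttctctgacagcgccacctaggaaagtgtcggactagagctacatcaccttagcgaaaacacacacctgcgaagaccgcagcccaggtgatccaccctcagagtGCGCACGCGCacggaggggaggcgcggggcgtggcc
Ezh2: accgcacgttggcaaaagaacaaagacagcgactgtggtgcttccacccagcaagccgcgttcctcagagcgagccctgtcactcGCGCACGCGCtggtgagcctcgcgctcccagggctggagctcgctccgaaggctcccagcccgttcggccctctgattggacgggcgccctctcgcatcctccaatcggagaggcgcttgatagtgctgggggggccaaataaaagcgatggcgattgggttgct
Suz12: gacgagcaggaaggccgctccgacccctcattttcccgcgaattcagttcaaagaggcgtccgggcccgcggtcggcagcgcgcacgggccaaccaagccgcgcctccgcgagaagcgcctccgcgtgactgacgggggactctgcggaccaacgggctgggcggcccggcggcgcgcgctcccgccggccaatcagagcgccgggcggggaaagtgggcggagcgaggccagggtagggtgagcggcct
Rnf2: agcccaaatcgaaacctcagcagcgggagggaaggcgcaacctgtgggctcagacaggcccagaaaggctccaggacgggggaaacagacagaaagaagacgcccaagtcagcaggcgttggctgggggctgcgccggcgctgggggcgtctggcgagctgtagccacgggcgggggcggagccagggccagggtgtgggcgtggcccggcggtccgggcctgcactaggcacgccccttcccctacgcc
Both strands were searched. The NRF1 letters occurred in the windows of Ezh1 and Ezh2, and in 3.74% of 32851 promoter windows of the same length. No member's window held the E2F letters TTNGCGC, found in 5.19% of all windows, or the ETS letters CCGGAAG, found in 6.91%. The SP1 letters GGGCGG occurred 6 times before Bmi1, 3 times before Suz12, and 2 times each before Rnf2 and Ring1. They occurred 1 time each before Cbx7 and Cbx8 and in each window of Jarid2, and not before Ezh1, Ezh2 or Eed. Of all windows, 32.7% held them at least once. The CpG count was 14 for Ezh1, 23 for Ezh2, 37 for Suz12 and 20 for Rnf2, against a median of 6 over all windows. These letters are a description of the windows, and a match is not a measured binding site.

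All values are log2 intensities (RMA) as deposited, so a difference of 1 is a 2-fold change, and levels are compared only within a probe set. Differences were tested with limma on every probe set at a Benjamini-Hochberg adjusted p of 0.05. On the first principal component (80.1% of variance) the experiments lay apart. Correlations between arrays were 0.983 to 0.996 within and 0.928 to 0.946 between experiments. Kmt2d probe set 10432294 read 7.87, 7.87, 7.87 and 7.90 in wild-type and 7.36, 7.17 and 7.47 in heterozygous mice of experiment 1, and 8.76, 8.32 and 8.51 against 7.88, 8.0 and 8.18 in experiment 2. Over both experiments it was lower by a log2 difference of -0.53 ± 0.08 (SE; 69.3% of wild type, exact permutation p = 0.00143, the smallest that 700 regroupings allow, limma adjusted p = 0.427). Its other probe set, 10432298, differed by 0.07 ± 0.07 (SE, limma adjusted p = 0.989). In experiment 1 this probe set went the other way without overlap, at 9.82 to 9.83 in wild-type and 9.84 to 9.95 in heterozygous mice. Its exact permutation p there was 0.0286, the smallest that 35 regroupings allow, and its genotypes overlapped in experiment 2. Positions of both probe sets relative to the insertion are not used here. The array of the mouse of unknown sex read 4.81 for Xist against 10.70 to 11.48 in the others, and 8.14 for the Y-linked gene Eif2s3y against 3.56 to 3.67. These are the readings of a male, while all other arrays read as female. The 8 measured markers of striatum and septum, which border the hippocampus, averaged 10.41 on the array of wild-type replicate 2 (experiment 1) and 8.07 to 8.51 on the arrays of the 3 other groups. The 3 arrays that stood apart (these 2 and heterozygous replicate 3 of experiment 2) were left out as an alternative.

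No Polycomb gene differed between genotypes past the threshold. Over both experiments, limma called 0 of 35556 probe sets (0%) and 0 of the 11 Polycomb probe sets. At an unadjusted p under 0.05, 4.54% of all probe sets passed and none of the 11. Their log2 differences, heterozygous minus wild type, ran from -0.12 (Cbx7) to 0.12 (Eed probe set 10554837), with a median of 0.05 against 0.003 for all probe sets, and 7 were above 0. All 95% intervals lay between -0.29 and 0.30, so the data are compatible with changes of that size in either direction and do not show that the genotypes are alike. The Polycomb genes' adjusted p ran from 0.989 to 0.993.

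**Figure D1:**
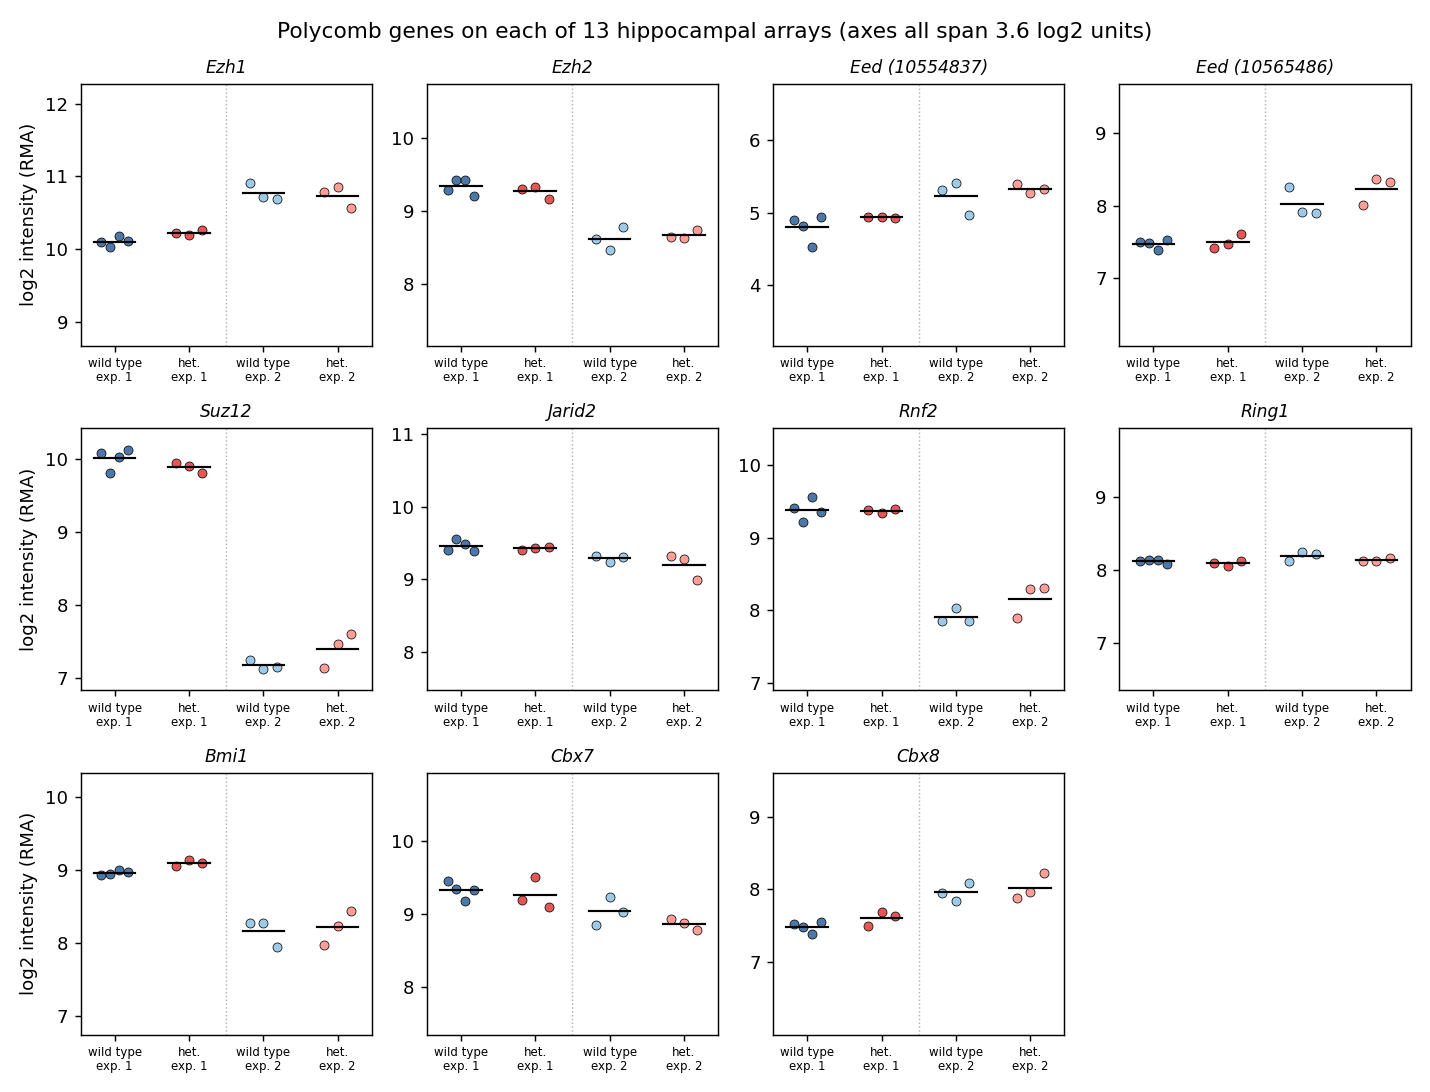
Log2 intensity of the 11 probe sets of the 10 Polycomb genes (vertical axes, each spanning the same 3.6 log2 units) in the 4 groups (horizontal axes), 1 point per mouse, with a bar at the group mean. The groups of each experiment sit side by side within each panel, and the step between experiments, largest for Suz12 and Rnf2, exceeds the spread between genotypes for most genes.

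Ezh1, the H3 lysine 27 methyltransferase of resting cells, read 10.10, 10.04, 10.18 and 10.11 in wild-type and 10.23, 10.20 and 10.26 in heterozygous mice of experiment 1. In experiment 2 it read 10.92, 10.72 and 10.69 in wild-type and 10.78, 10.85 and 10.57 in heterozygous mice. The genotypes did not overlap in experiment 1, heterozygous mice being higher, and overlapped in experiment 2. Over both experiments the genotype difference was 0.05 ± 0.06 (SE, 95% interval -0.09 to 0.19, limma adjusted p = 0.989).

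Ezh2, its counterpart in dividing cells, read 9.29, 9.42, 9.43 and 9.20 in wild-type and 9.31, 9.33 and 9.17 in heterozygous mice of experiment 1. In experiment 2 it read 8.62, 8.47 and 8.78 against 8.64, 8.63 and 8.73. The genotypes overlapped in both experiments, and every mouse of experiment 2 lay below every mouse of experiment 1. The genotype difference was -0.01 ± 0.07 (SE, 95% interval -0.15 to 0.13, limma adjusted p = 0.993).

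Eed, the subunit that binds methylated lysine 27 and stimulates the enzyme, has a bright and a dim probe set. Probe set 10565486 read 7.50, 7.49, 7.39 and 7.53 in wild-type and 7.41, 7.47 and 7.61 in heterozygous mice of experiment 1, and 8.25, 7.91 and 7.90 against 8.01, 8.37 and 8.33 in experiment 2. Its genotype difference was 0.11 ± 0.08 (SE, 95% interval -0.06 to 0.29, limma adjusted p = 0.989). Probe set 10554837, whose mean of 5.05 stood at the 20.8th percentile of all probe sets, ranged from 4.53 to 4.94 in experiment 1 and from 4.97 to 5.41 in experiment 2. Both Eed probe sets read higher in every mouse of experiment 2 than in any of experiment 1.

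Suz12, the scaffold that holds the PRC2 core together, read 10.09, 9.82, 10.03 and 10.13 in wild-type and 9.95, 9.91 and 9.81 in heterozygous mice of experiment 1. In experiment 2 it read 7.24, 7.12 and 7.14 in wild-type and 7.14, 7.46 and 7.59 in heterozygous mice. The genotypes overlapped in both experiments, while the experiments stood more than 2 log2 units apart. The genotype difference was 0.04 ± 0.09 (SE, 95% interval -0.16 to 0.24, limma adjusted p = 0.989). Jarid2, a DNA-binding partner that helps recruit PRC2, ranged from 9.39 to 9.56 in experiment 1 and from 9.0 to 9.32 in experiment 2, with heterozygous replicate 3 lowest. Its genotype difference was -0.06 ± 0.06 (SE, limma adjusted p = 0.989).

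Rnf2, a ubiquitin ligase of PRC1, read 9.41, 9.21, 9.56 and 9.36 in wild-type and 9.38, 9.34 and 9.39 in heterozygous mice of experiment 1. In experiment 2 it read 7.85, 8.03 and 7.85 against 7.89, 8.29 and 8.31. Heterozygous replicates 2 and 3 were above all wild-type mice of experiment 2, and replicate 1 lay among them, as it did for Suz12 and for Eed probe set 10565486. The genotype difference over both experiments was 0.11 ± 0.09 (SE, 95% interval -0.08 to 0.30, limma adjusted p = 0.989).

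Ring1, the other ligase, stayed within 8.05 to 8.14 in experiment 1 and 8.12 to 8.24 in experiment 2. It read 8.12, equal to 4 decimals, in 1 mouse of each of the 4 groups, while no mouse equalled another of its own group. What these equal values mean for its differences was not tested. Its genotype difference was -0.04 ± 0.04 (SE, 95% interval -0.13 to 0.05, limma adjusted p = 0.989).

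Bmi1, the PCGF protein that pairs with the ligases in canonical PRC1, read 8.93, 8.94, 9.0 and 8.98 in wild-type and 9.05, 9.13 and 9.10 in heterozygous mice of experiment 1. In experiment 2 it read 8.27, 8.28 and 7.95 against 7.98, 8.23 and 8.44. The genotypes did not overlap in experiment 1, heterozygous mice being higher, and overlapped in experiment 2. Over both experiments the genotype difference was 0.09 ± 0.08 (SE, 95% interval -0.08 to 0.26, limma adjusted p = 0.989).

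Cbx7 and Cbx8 are readers of the lysine 27 mark. Cbx7 ranged from 9.10 to 9.51 in experiment 1 and from 8.78 to 9.24 in experiment 2, with genotypes that overlapped in both. Cbx8 ranged from 7.38 to 7.69 in experiment 1 and from 7.84 to 8.23 in experiment 2, again with overlapping genotypes. Their genotype differences were -0.12 ± 0.08 for Cbx7 (SE, 95% interval -0.29 to 0.06) and 0.10 ± 0.07 for Cbx8 (SE, 95% interval -0.05 to 0.24), each with a limma adjusted p of 0.989. Without the 3 arrays that stood apart, the difference of Cbx8 was 0.02 and that of Eed probe set 10554837 moved from 0.12 to 0.06.

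**Figure D2:**
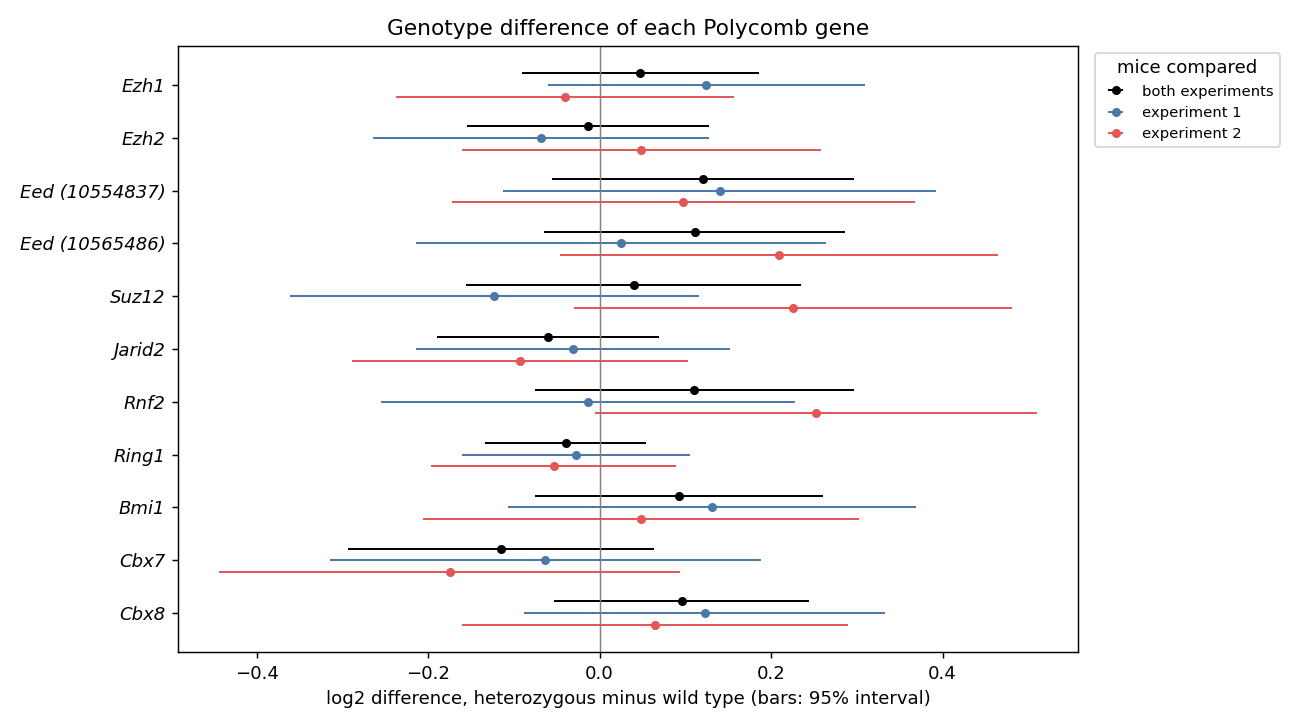
Log2 difference between heterozygous and wild-type mice (horizontal axis) for each Polycomb probe set (vertical axis), over both experiments and within each, with 95% intervals from limma as bars. Every interval crosses 0, and the 1 that comes nearest to lying wholly above it is Rnf2 in experiment 2, at -0.01 to 0.51.

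Within experiment 1, limma called 0 probe sets (0%), with 2.74% at an unadjusted p under 0.05 and none of the 11. Of the 11 Polycomb probe sets, 2 (Ezh1 and Bmi1) had genotypes without overlap, against 6.12% of all probe sets. The differences were 0.12 ± 0.09 for Ezh1 (SE, exact permutation p = 0.0571, limma adjusted p = 1) and 0.13 ± 0.11 for Bmi1 (SE, exact permutation p = 0.0286, the smallest that 35 regroupings allow, limma adjusted p = 1). In experiment 2, where heterozygous and wild-type mice overlapped for both genes, the same differences were -0.04 ± 0.09 and 0.05 ± 0.12 (SE).

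Within experiment 2, limma again called 0 probe sets (0%), and the genotypes overlapped for all 11 Polycomb probe sets, against no overlap for 9.56% of all. An unadjusted p under 0.05 was reached by 9.1% of all probe sets and by none of the 11. The differences with the lowest p were 0.25 ± 0.12 for Rnf2 (SE, 95% interval -0.01 to 0.51, limma adjusted p = 0.556), 0.23 ± 0.12 for Suz12 (SE, 95% interval -0.03 to 0.48, limma adjusted p = 0.588) and 0.21 ± 0.12 for Eed probe set 10565486 (SE, limma adjusted p = 0.613). The 3 subunits were highest in the same heterozygous mice, replicates 2 and 3, and their exact permutation p-values were 0.2, 0.3 and 0.2, where 0.1 is the smallest that 20 regroupings allow. Without the 3 arrays that stood apart, 1 of them heterozygous replicate 3 of this experiment, the difference of Suz12 was 0.13 and that of Rnf2 0.18.

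The difference between the genotype effects of the 2 experiments was also tested. It passed for 0 of 35556 probe sets (0%), and at an unadjusted p under 0.05 for 5.67% of all and none of the 11. It was largest for Suz12, at 0.35 ± 0.16 (SE, 95% interval 0.00 to 0.70, limma adjusted p = 0.85), the genotype difference being -0.12 in experiment 1 and 0.23 in experiment 2.

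Between the experiments, most of the Polycomb genes differed, in both directions. The members lower in experiment 2 were Suz12, Rnf2, Bmi1, Ezh2, Cbx7 and Jarid2, which is 6 of 11 probe sets against 27.5% of all probe sets. The members higher in experiment 2 were Ezh1, both Eed probe sets and Cbx8, which is 4 of 11 against 45.9% of all. Without overlap between the mice of the experiments, 5 of the 11 lay lower (Ezh2, Suz12, Jarid2, Rnf2 and Bmi1) against 20.8% of all probe sets, and 4 lay higher against 28.4%. With 73.4% of all probe sets called, a call is common on these arrays, and the members' median of -0.20 stood beside a median of 0.15 over all.

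Suz12 was 6.42-fold lower in experiment 2, a log2 difference of -2.68 ± 0.09 (SE, limma adjusted p = 2.47e-11). A difference as low or lower was seen in 107 of 35556 probe sets, 0.301% of them. Rnf2 was 2.55-fold lower, at -1.35 ± 0.09 (SE, limma adjusted p = 1.02e-08), and 4.06% of probe sets were as low or lower. Bmi1 was 1.79-fold lower, at -0.84 ± 0.08 (SE, limma adjusted p = 4.54e-07), and Ezh2 was 1.58-fold lower, at -0.66 ± 0.07 (SE, limma adjusted p = 8.47e-07). These 4 were lower under every scaling tried. A scaling is needed here because the median over all probe sets was 0.15 higher in experiment 2 as deposited, -0.10 with arrays centred on their medians and 0.00 with quantile normalisation, and among called probe sets 62.5%, 37.6% and 49.2% were higher.

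Of the genes higher in experiment 2, Eed probe set 10565486 stood at 0.63 ± 0.08 (SE, limma adjusted p = 1.04e-05), Ezh1 at 0.59 ± 0.06 (SE, limma adjusted p = 2.05e-06) and Cbx8 at 0.45 ± 0.07 (SE, limma adjusted p = 5.4e-05). These were higher under all 3 scalings, Ezh1 at 0.35 with centred arrays and 0.80 with quantile normalisation. The dim Eed probe set 10554837, at 0.42 ± 0.08 (SE, limma adjusted p = 0.000451), was not called under either rescaling (0.17, adjusted p = 0.0847, and 0.09, adjusted p = 0.377).

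The smaller differences depended on the scaling. Cbx7 was lower at -0.34 ± 0.08 (SE, limma adjusted p = 0.00214), and at -0.07 with quantile normalisation (adjusted p = 0.507). Jarid2 was lower at -0.20 ± 0.06 (SE, limma adjusted p = 0.00873), turned to 0.10 with quantile normalisation (adjusted p = 0.183), and stood at -0.12 without the 3 arrays that stood apart (adjusted p = 0.048). Ring1 was not called, at 0.06 ± 0.04 (SE, limma adjusted p = 0.213), but stood at -0.18 with centred arrays (adjusted p = 0.00653) and at 0.17 with quantile normalisation (adjusted p = 0.00584), so it has no settled direction.

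**Figure D3:**
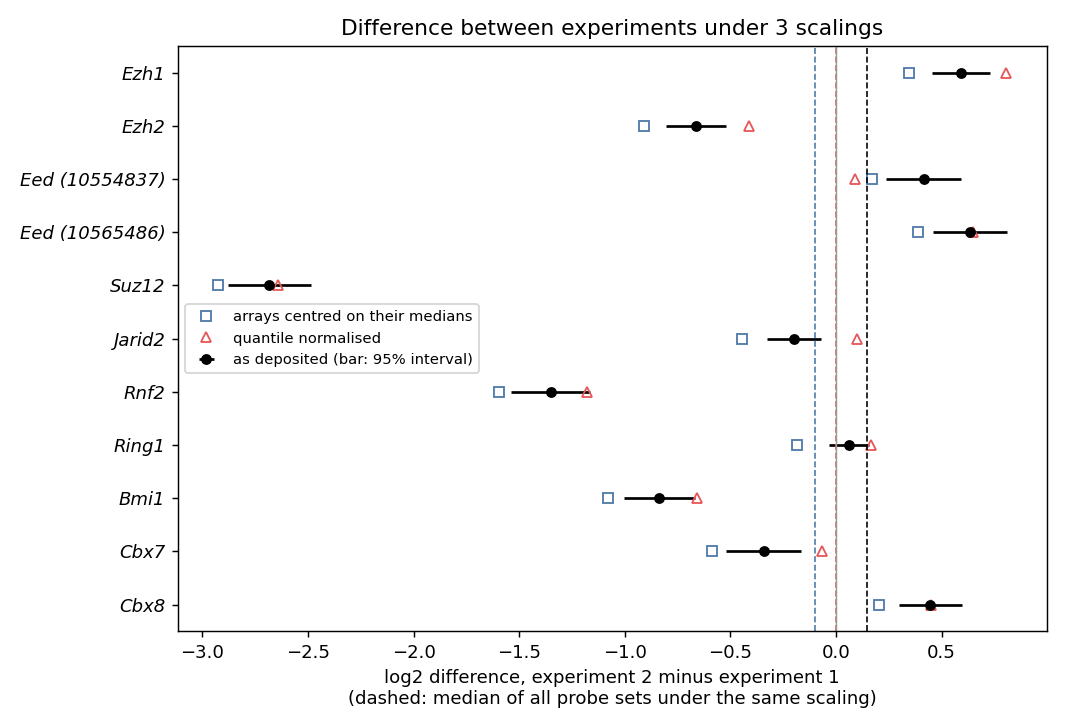
Log2 difference between experiment 2 and experiment 1 (horizontal axis) of each Polycomb probe set (vertical axis) as deposited, with 95% intervals, and under 2 rescalings; dashed lines mark the median of all probe sets under the same scaling. Suz12 and Rnf2 lie far to the left under all 3 scalings, at -2.68 and -1.35 as deposited, while Ring1 and Jarid2 change side.

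Markers of cell types moved with the experiment as well. The 10 measured markers of hippocampal principal neurons averaged 10.47 to 10.76 on the arrays of experiment 1 and 9.76 to 9.97 on those of experiment 2, and 8 of the 10 were lower past the threshold. General neuronal markers averaged 11.69 to 11.74 and then 11.32 to 11.47, with 5 of 8 lower and 2 higher. Astrocyte markers averaged 10.82 to 11.09 and then 10.30 to 10.45, with 7 of 8 lower and 1 higher. Markers of dividing cells, the setting in which Ezh2 is best known, were dim, averaging 5.96 to 6.11 and then 6.03 to 6.13. Array medians were 6.74 to 7.08. Of the 9 markers, 2 were lower and 1 higher as deposited (median 0.07), where Ezh2 stood at -0.66. With centred arrays 6 were lower and 0 higher, and with quantile normalisation 7 were lower and 0 higher. The Hox genes described below, also dim, moved towards lower under the same rescalings. The marker counts stand beside the shares of all probe sets called, 27.5% lower and 45.9% higher as deposited. The shares were 41.3% and 24.9% with centred arrays, and 31.1% and 30.2% with quantile normalisation. They cover probe sets of every brightness, and without the dimmest 50% 8418 were lower and 5915 higher as deposited. Of the other lists, endothelial markers were lower for 6 of 7 and higher for 1, and oligodendrocyte markers for 4 and 1 of 7 (median -0.54). Choroid plexus markers were lower for 4 of 9 and higher for 0 (median -0.75), striatal and septal markers for 2 and 0 of 8 (median -0.53). Immature neuron markers were lower for 4 of 7 and higher for 1, and microglial and meningeal markers for 4 and 2 of 8 each. Ependymal markers went the other way as deposited, with 5 of 8 higher and 1 lower, and 3 higher and 1 lower under both rescalings. By genotype, 9 of 9 choroid plexus markers were lower in heterozygous mice of experiment 1 (median -0.86). In experiment 2, 9 of 9 were higher (median 0.38). Oligodendrocyte markers were lower for 7 of 7 (median -0.24), then higher for 6 of 7 (median 0.21). General neuronal markers had medians of -0.003 and -0.03. None of these passed the threshold by genotype. The part of these marker differences in the Polycomb differences was not tested, and in whole tissue fewer cells of a type and less RNA per cell cannot be told apart.

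Paralogues were also compared within each array, where a shift of the whole array cancels. The pairs were chosen after their values were seen and are given without a test, and the difference between 2 probe sets has no zero point, so only its change between arrays is read. Ezh1 minus Ezh2 was 0.61 to 0.91 in wild-type and 0.87 to 1.09 in heterozygous mice of experiment 1, and 1.91 to 2.30 and 1.83 to 2.22 in experiment 2, a change of 1.25 between the experiments without overlap. Ring1 minus Rnf2 was -1.42 to -1.09 in experiment 1 and -0.17 to 0.36 in experiment 2, a change of 1.41. Cbx7 minus Cbx8 was 1.46 to 1.94 in experiment 1 and 0.55 to 1.39 in experiment 2, a change of -0.79. By genotype, over both experiments, the changes were 0.06 for Ezh1 minus Ezh2, -0.15 for Ring1 minus Rnf2 and -0.21 for Cbx7 minus Cbx8.

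**Figure D4:**
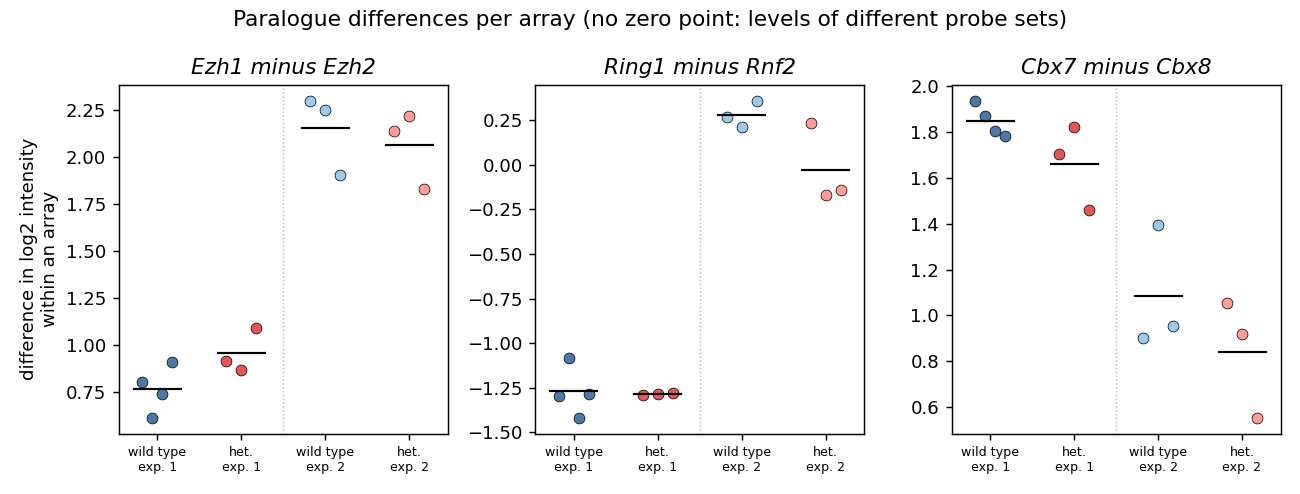
Difference in log2 intensity between paralogous Polycomb genes within an array (vertical axes) in the 4 groups (horizontal axes), 1 point per mouse, with a bar at the group mean. Experiments do not overlap in any of the 3 pairs.

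Further Polycomb genes and targets were read from 6 lists, and by genotype over both experiments 0 of their 140 measured members passed the threshold. Among 9 other PRC2 subunits the median difference was 0.02, the lowest p belonging to Phf1, a Polycomb-like protein, at -0.13 ± 0.07 (SE, limma adjusted p = 0.989). Among 24 measured PRC1 subunits the median was -0.01, the lowest p belonging to Wdr5 at 0.11 ± 0.06 (SE, limma adjusted p = 0.989). Rybp, a subunit of variant PRC1, stood at -0.21 ± 0.11 and E2f6 at 0.21 ± 0.17 (SE, limma adjusted p = 0.989 for each). Mysm1, a deubiquitinase of histone H2A, stood at 0.24 ± 0.08 (SE, limma adjusted p = 0.989), with 7.53 to 7.59 in wild-type and 7.93 to 8.08 in heterozygous mice of experiment 2 and 8.18 to 8.33 against 8.26 to 8.30 in experiment 1. The 4 enzymes that remove or compete with lysine 27 methylation had a median of 0.01. Hox cluster genes, the classical Polycomb targets, had a median of -0.02 over 37 genes, with Hoxa4 at 0.16 ± 0.06 (SE, limma adjusted p = 0.989), and 55 other developmental regulators a median of -0.03, with Isl1 at -0.47 ± 0.15 (SE, limma adjusted p = 0.989). Isl1 ranged from 6.03 to 7.06 in wild-type and from 5.59 to 5.69 in heterozygous mice of experiment 1, the experiment whose wild-type replicate 2 had the high striatal and septal markers, and the part of those cells in it was not tested.

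Between the experiments the other subunits also went both ways. The counts below stand beside the shares of all probe sets that were called. These were 27.5% lower and 45.9% higher as deposited, 41.3% and 24.9% with centred arrays, and 31.1% and 30.2% with quantile normalisation. The shares cover probe sets of every brightness, and without the dimmest 50% 8418 were lower and 5915 higher as deposited (median -0.13). The PRC1 list was bright, averaging 8.48 to 8.85 where array medians were 6.74 to 7.08. Of 24 PRC1 subunits, 13 were lower past the threshold and 4 higher, with a median of -0.30; with centred arrays 18 were lower and 2 higher, and with quantile normalisation 13 and 8. Yaf2, a partner of the ligases in variant PRC1, was lower at -1.19 ± 0.05 (SE, limma adjusted p = 4.11e-10), with 10.66 to 10.76 in wild-type mice of experiment 1 and 9.45 to 9.60 in experiment 2. Pcgf6, a PCGF protein like Bmi1, was lower at -1.12 ± 0.06 (SE, limma adjusted p = 3.38e-09). Of 9 PRC2 subunits and partners, 2 were lower and 2 higher, a balance that turned to 5 lower and 1 higher with centred arrays and to 1 lower and 5 higher with quantile normalisation. Rbbp4, the histone-binding subunit of the PRC2 core, was lower at -0.98 ± 0.08 (SE, limma adjusted p = 1.11e-07). Ezhip, an inhibitor of PRC2, was higher at 0.65 ± 0.09 (SE, limma adjusted p = 1.47e-05), and at 0.41 with centred arrays and 0.32 with quantile normalisation. Its probe set was dim, with group means of 5.93 to 6.64 where array medians were 6.74 to 7.08.

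Of 11 measured H2A deubiquitinase genes and readers, 6 were lower and none higher, against 11 and 0 with centred arrays and 5 and 3 with quantile normalisation. Of the 4 enzymes of lysine 27 demethylation and acetylation, 3 were lower: Kdm6a, a demethylase, at -1.34 ± 0.11 (SE, limma adjusted p = 8.33e-08), Ep300 at -0.62 ± 0.05 and Crebbp at -0.27 ± 0.05 (SE), both acetyltransferases. All 3 were lower under both rescalings. Kdm6b, the other demethylase, stood at -0.05 ± 0.08 (SE, limma adjusted p = 0.562), at -0.30 with centred arrays (adjusted p = 0.00784) and at 0.15 with quantile normalisation (adjusted p = 0.0822), so it has no settled direction.

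Of 37 Hox genes, which were dim on every array with list means of 5.59 to 5.93, 20 were higher and none lower, where 45.9% of all probe sets were higher, with a median of 0.24 beside 0.15 over all. The direction did not hold under rescaling: with centred arrays 2 were higher and 7 lower (median 0.00), and with quantile normalisation 2 were higher and 10 lower (median -0.11). Of 55 other developmental regulators, 25 were higher (near the 45.9% of all probe sets) and 10 lower as deposited, 5 and 23 with centred arrays, and 2 and 25 with quantile normalisation. Dlx1, a regulator of interneurons, was lower at -1.13 ± 0.12 (SE, limma adjusted p = 1.27e-06) and at -1.37 with centred arrays and -1.04 with quantile normalisation.

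**Figure D5:**
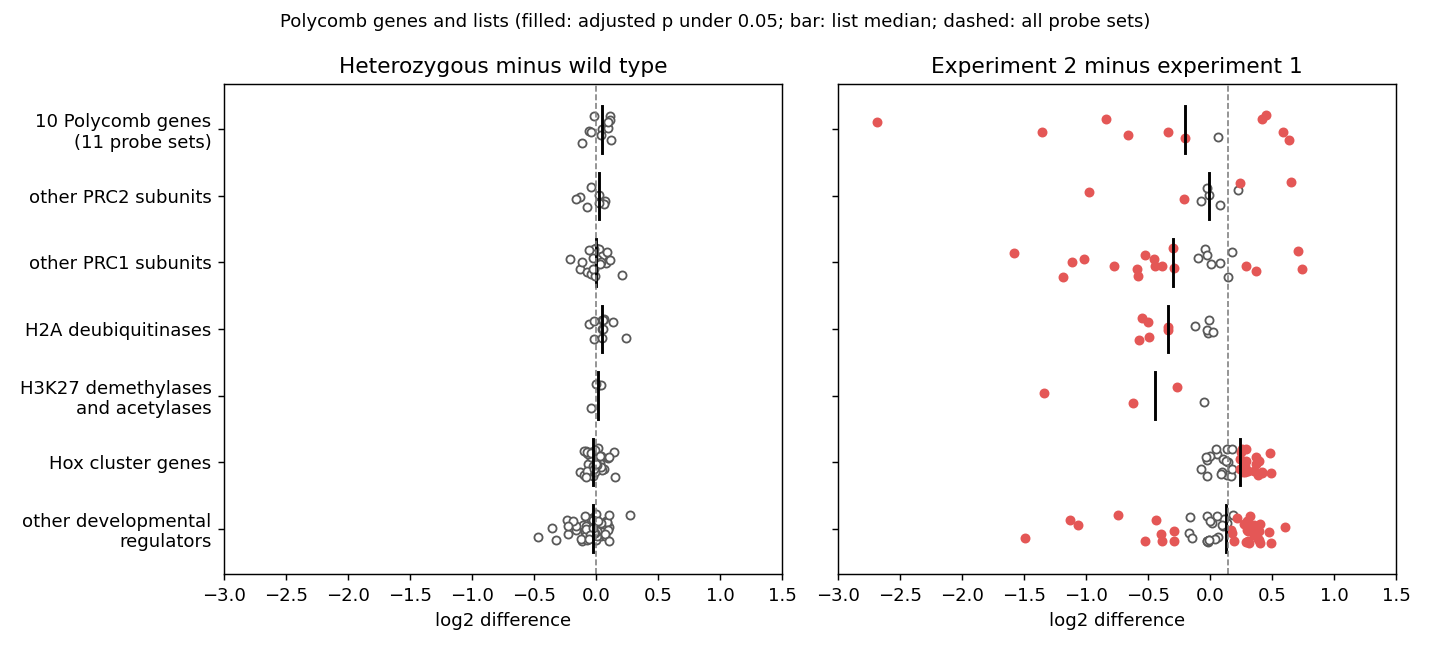
Log2 differences by genotype (left) and between experiments (right) of the 11 Polycomb probe sets and of the genes of 6 lists, 1 point per gene, filled where the limma adjusted p was under 0.05, with a bar at the list median and a dashed line at the median of all probe sets. No point is filled on the left, and on the right the PRC1 subunits lie mostly below 0, with a median of -0.30, and the Hox genes mostly above it, with a median of 0.24 as deposited.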

How the data were processed

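Whole hippocampus of 13 mice was profiled on Affymetrix Mouse Gene 1.0 ST arrays. The deposited values are log2 intensities, for which the submitters' processing notes name RMA and the R package oligo. Its version, the build and the number of normalisation runs are not given in these sources. Genes were named from the platform annotation, which gives 21789 probe sets 1 gene, 1621 several and 12146 none.

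Tests used limma 3.58.1 in R 4.3.3 on all 35556 probe sets without a filter, two-sided, with Benjamini-Hochberg adjustment. Genotype over both experiments and experiment 2 minus experiment 1 came from genotype and experiment terms, and the within-experiment effects and their difference from the 4 groups. Errors are standard errors. Single values were also tested by exact permutation within strata. Each array is 1 mouse, and the number of arrays limits precision. The fit was tested on simulated data. Every member was named, with Kmt2d and up to 4 genes of lowest p per list and comparison. E2f6, which had the highest genotype difference of the PRC1 list, was named outside that rule. List genes with several probe sets used the brightest. The members and lists were chosen with earlier results of these data known. Same-numbered replicates did not pair (correlations of -0.25 to 0.17). Promoter windows are from RefSeq on GRCm38.p6.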

Additional observations from a re-analysis of the deposited data

Results flagged for a closer look

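No Polycomb probe set had a mouse far from the rest of its group in the group of 4, the only group large enough for that check. Both Kmt2d probe sets did. Probe set 10432294 read 7.90 in wild-type replicate 4 of experiment 1, and probe set 10432298 read 9.83 in wild-type replicate 3, while the other 3 mice of that group held equal values to 4 decimals, 7.87 and 9.82. With 3 equal values any gap reaches the whole range, and about 1 group in 20 is picked out this way by chance.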

How the results depend on the processing

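No Polycomb probe set passed the threshold by genotype under any alternative run: over both experiments, within either, or for the difference of the effects. The counts over all probe sets moved from 0 as follows. Over both experiments, array weights gave 1. Within experiment 1, 1 probe set per gene and the mean per gene each gave 4, array weights 12 and only that experiment's arrays 1. Within experiment 2, leaving out the dimmest 30% gave 2 and the dimmest 50% gave 1, a trended robust fit 2 and quantile normalisation 3, and leaving out 1 mouse gave 0 to 19, with 19 without heterozygous replicate 1 of experiment 2, 3 without its replicate 2, and 1 without wild-type replicate 1 or 4 of experiment 1. Between the experiments, 26086 calls became 15385 with 1 probe set per gene, 15423 with the mean per gene and 14333 without the dimmest 50%, where fewer features were tested, and 8 to 10 Polycomb probe sets were called over all alternatives. The share of calls that were higher was 62.5% as deposited, 54.2% with 1 probe set per gene and 41.3% without the dimmest 50%. Jarid2 reversed to 0.10 with quantile normalisation; the cause was not tested. Leaving out 1 mouse at a time changed no member's call between the experiments. With the replicate block, which the numbers do not bear out as pairs (1 of 6 arrays correlated best with its own number), 26592 probe sets were called between the experiments and 0 by genotype.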
